A study of Homo sapiens with 6 samples.

Results

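The genes described here belong to the Nodal and Activin pathway. They are the ligands NODAL and GDF3, the coreceptor TDGF1, the receptors ACVR1B, ACVR2A and ACVR2B, the secreted inhibitors LEFTY1 and LEFTY2, and the intracellular inhibitor SMAD7. They were chosen by gene symbol, and all 9 were found among the 27672 gene rows of an RNA-seq table from human embryonic stem cells (hESCs) and the neuromesodermal progenitor-like (NMP-L) cells made from them.

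The table holds 6 polyA RNA-seq libraries, with 3 biological replicates of each cell state, all from H9, an established human embryonic stem cell line. The hESC libraries are from day 0 of culture, untreated, and the NMP-L libraries are from day 3. According to the labels, the stem cells were kept without feeders on fibronectin in DEF medium to which 10 ng/ml Noggin, a BMP antagonist, and 30 ng/ml bFGF had been added. NMP-L cells were made by 3 days in an N2/B27 medium that held CHIR99021 at 3 µM, a GSK3 inhibitor that activates Wnt signalling, together with bFGF at 20 ng/ml. All libraries therefore share 1 cell line and exposure to bFGF, and the conditions differ in medium, bFGF dose, Noggin and CHIR99021 together, so that these cannot be told apart.

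The sources differ on points that bear on this pathway. The study's methods describe TESR medium on Geltrex for the stem cells, and they place Noggin and SB431542 in the medium from the day before the NMP-L harvest to the day after it, in the passage on making neural progenitors. SB431542 blocks the kinase of the type I receptors encoded by ACVR1B, ACVR1C and TGFBR1. The labels of the NMP-L libraries name neither compound, so whether these libraries came from cells exposed to the inhibitor is not settled by the sources used here. The study's methods speak of separate experiments for other assays, but do not describe the RNA-seq replicates, and the p-values measure the spread between these libraries.

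As background, NODAL and Activins are TGFβ family ligands that bind type II receptors (ACVR2A, ACVR2B), which then activate a type I receptor such as ACVR1B. NODAL also needs a coreceptor of the EGF-CFC family, to which TDGF1 (CRIPTO) belongs. The activated type I receptor phosphorylates SMAD2 and SMAD3, which enter the nucleus with SMAD4 and act with partners such as FOXH1. Among their best known targets are NODAL itself and the inhibitors LEFTY1 and LEFTY2, and the pathway is known for holding human pluripotent cells in their state and for patterning the primitive streak.

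LEFTY1 and LEFTY2 are neighbouring, near-identical genes, which bears on how well 76-base reads can be assigned to 1 of them. In GRCh37, the LEFTY1 gene lies at chr1:226073982-226099082 and LEFTY2 at chr1:226124298-226129083, both on the minus strand. Over their 1098 coding bases they differ at 31 positions (97.2% identity), and 363 of the 1023 possible 76-base coding windows (35.5%) are the same in both. A read that falls wholly in such a window matches both genes.

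TDGF1 (GRCh37 chr3:46616024-46623947, plus strand) has a comparable relative in TDGF1P3, an intronless copy at chrX:109764124-109766249 that has a row of its own in the table. Their 564 coding bases differ at 7 positions (98.8% identity), and 435 of the 1881 windows of the TDGF1 transcript (23.1%) also occur in TDGF1P3. The deposited counts of LEFTY1, LEFTY2 and TDGF1 were not whole numbers, whereas those of the other 6 genes were. Of all genes, 8.44% had such fractional counts, which arise when reads are divided between genes by estimation.

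The other members stand at single loci. NODAL lies at chr10:72191692-72207707 (minus strand), GDF3 at chr12:7842380-7848371 (minus strand) and SMAD7 at chr18:46446223-46477335 (minus strand). Of the receptors, ACVR1B is at chr12:52345483-52390862, ACVR2A at chr2:148602086-148688395 and ACVR2B at chr3:38495381-38534633, all on the plus strand. None of the 76-base windows of NODAL, GDF3, SMAD7, ACVR1B and ACVR2B occurred in another gene of the table. Exons of ACVR2A overlap those of ORC4, and exons of TDGF1 those of LRRC2, in each case on the opposite strand. Whether counting used strand is not given in the sources used here, and reads from such overlaps could then not be told apart.

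Totals ran from 19454543 to 19744142 counts in the hESC libraries and from 20687062 to 23036426 in the NMP-L libraries. Of the 27672 genes, 15517 had enough counts to test. With edgeR's quasi-likelihood test at a Benjamini-Hochberg adjusted p under 0.05, 29.1% of them were higher in NMP-L cells and 26.7% were lower, and for 61.6% the libraries of the conditions did not overlap. The cell states matched their labels by marker genes. The 5 NMP genes T, CDX1, CDX2, NKX1-2 and SP5 summed to 2.51 to 3.55 CPM (counts scaled to a common library size, with TMM factors) in hESCs and 100.2 to 133 CPM in NMP-L cells, and all 5 were called higher, although T, CDX1, CDX2 and SP5 passed the filter on low counts only through NMP-L libraries. The 4 pluripotency genes POU5F1, NANOG, DPPA4 and ZFP42 summed to 2674 to 2756 CPM in hESCs and 1232 to 1331 CPM in NMP-L cells, and all 4 fell.

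To ask how the pathway's parts differed between the cell states, each gene was compared between the 3 hESC and the 3 NMP-L libraries. NODAL, ACVR1B and ACVR2A rose, by 4.84-, 3.49- and 1.34-fold, while GDF3, LEFTY2, TDGF1 and SMAD7 fell, by 13.1-, 10.4-, 1.43- and 1.54-fold (LEFTY2 from summed counts). NODAL thus rose where its inhibitor LEFTY2 fell. The calls for TDGF1, ACVR2A and SMAD7 each rest on the scaling, and that for SMAD7 was also lost when any 1 library was left out. ACVR2B, the more abundant of the type II receptor transcripts ACVR2A and ACVR2B, did not pass the test. LEFTY1 had too few counts to test.

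In counts, 3 of 8 tested members were called higher, beside 29.1% of all genes tested, and 4 were called lower, beside 26.7%. The libraries of the conditions did not overlap for 7 of the 8 tested members, beside 61.6% of all genes tested, and LEFTY1 did not overlap either. These shares describe 8 genes chosen by name. LEFTY2 passed the filter on low counts only through its hESC libraries, so that it could hardly have passed without differing. The median log2 fold change of the 8 tested members was -0.26, beside 0.03 for all genes tested. For each of the 8 non-overlapping members an exact two-sided permutation test gave p = 0.1, the smallest value that 3 against 3 libraries allow.

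The split depends on what is taken as constant. Scaled to GAPDH, a glycolytic enzyme often used as a reference, 4 members were higher and 2 lower, and scaled to HPRT1, a purine salvage enzyme used likewise, 2 were higher and 4 lower. GAPDH itself fell in the TMM-scaled data (log2 fold change -0.55, adjusted p = 0.00014) and HPRT1 did not pass the test (0.28, adjusted p = 0.069). The median of all genes moved by 0.56 under GAPDH and by -0.30 under HPRT1, and 87.5% and 25.3% of all called genes were then higher, against 52.1% in the TMM-scaled data. NODAL, ACVR1B and GDF3 kept their direction and call under both references. So did LEFTY2, with the limit that it passed the filter on low counts only through hESC libraries. In bulk RNA, fewer cells of a type and less RNA per cell cannot be told apart, which holds for every value here.

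**Figure D1:**
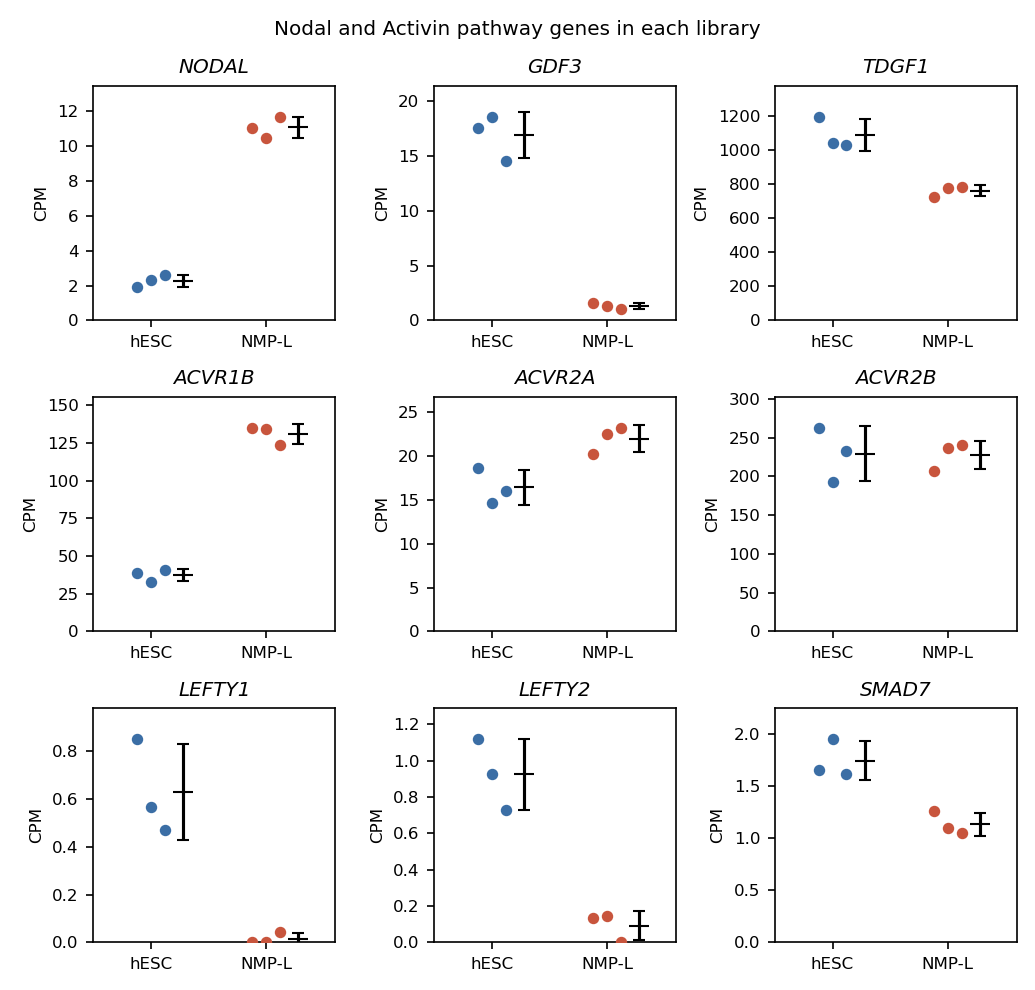
Level of each of the 9 pathway genes in each library, in CPM after TMM scaling (vertical axes from 0, a separate scale for each gene), for the 3 hESC and the 3 NMP-L libraries. Points are libraries, and lines with bars give the mean and SD. NODAL stands at 1.92 to 2.61 CPM in hESCs and 10.5 to 11.7 CPM in NMP-L cells, GDF3 shows the opposite order, and the libraries of ACVR2B overlap.

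The ligands moved in opposite directions. NODAL, the ligand of the family that patterns the early embryo, had 36, 45 and 50 counts in the hESC libraries, against 246, 220 and 280 counts in those of NMP-L cells. This corresponds to 1.92, 2.31 and 2.61 CPM against 11.0, 10.5 and 11.7 CPM. Every NMP-L library was above every hESC library by a margin far wider than the spread within either. The means were 2.28 ± 0.345 and 11.1 ± 0.607 CPM (SD, n = 3 each), a log2 fold change of 2.28 (SE 0.15, adjusted p = 2.5e-07 by edgeR's quasi-likelihood test with Benjamini-Hochberg adjustment, which gives the adjusted p-values below too).

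GDF3, a second ligand of the family that is expressed in pluripotent cells, had 329, 362 and 279 counts in hESCs, against 35, 27 and 24 counts for NMP-L. Its levels were 17.6, 18.6 and 14.6 CPM against 1.57, 1.29 and 1.00 CPM. No GDF3 value of an NMP-L library came near one of an hESC library. The means were 16.9 ± 2.10 and 1.29 ± 0.284 CPM (SD, n = 3 each), with a log2 fold change of -3.72 (SE 0.18, adjusted p = 2e-08).

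Levels of different genes are compared per transcript length, in TPM (the deposited length-scaled values). GDF3 TPM per NODAL TPM was 14.5, 12.8 and 9.06 in the hESC libraries, against 0.234, 0.197 and 0.140 for NMP-L. GDF3 was thus the more abundant of the pair in every hESC library and the less abundant in every NMP-L library. Together with GDF1, GDF11, INHBA and INHBB, whose products also signal through these receptors or form subunits of Activins, the ligand transcripts summed to 48.2 ± 3.80 TPM in hESCs and 35.5 ± 2.37 TPM in NMP-L cells (SD, n = 3 each). NODAL made up 4.32, 4.75 and 6.28% of that sum in hESCs and 32.4, 35.7 and 37.7% in NMP-L cells. GDF3 made up 60.1 ± 2.86% and 6.63 ± 1.21% (SD, n = 3 each). These proportions are among 14 sums and ratios computed, and for each of the 11 whose libraries did not overlap between the conditions the exact two-sided permutation p was 0.1, the smallest possible, or 0.127 after Benjamini-Hochberg adjustment.

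**Figure D2:**
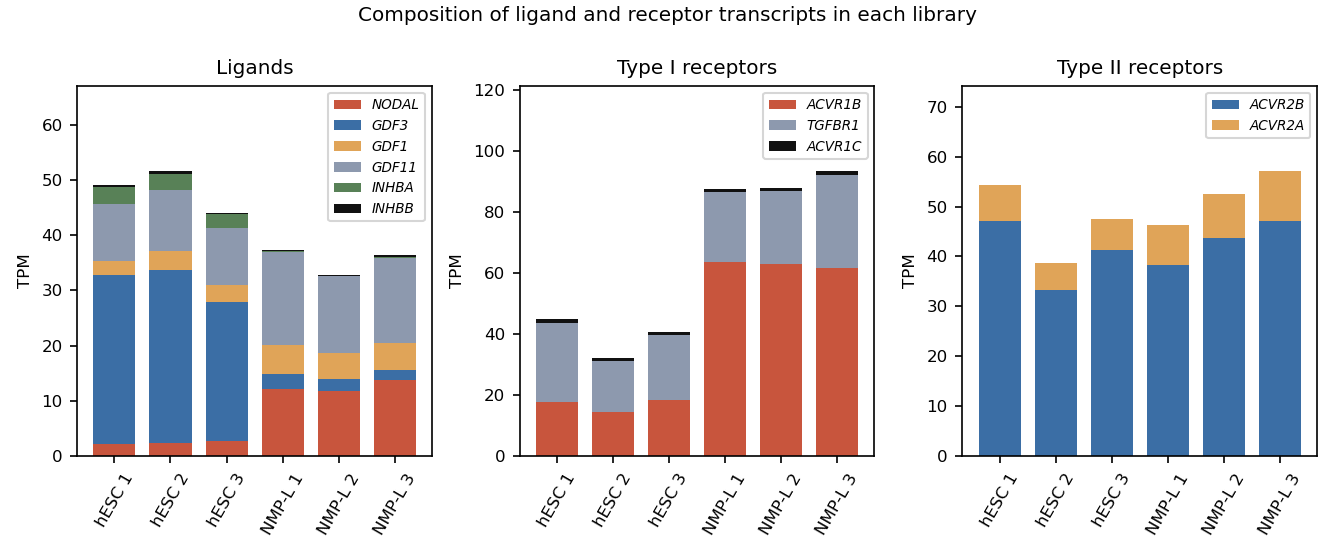
Make-up of the ligand, type I receptor and type II receptor transcripts in each of the 6 libraries, in TPM (vertical axes from 0); each bar is 1 library and its coloured segments are genes. GDF3 is the main ligand segment in hESCs (60.1% on average) and NODAL takes 35.3% in NMP-L cells, the ACVR1B segment grows in the type I bars, and the type II bars are similar in height.

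TDGF1, the coreceptor that NODAL and GDF3 need, was by far the most abundant member per transcript length (TPM) in both cell states. It had 1198, 1044 and 1030 CPM in the hESC libraries, against 726, 779 and 784 CPM for NMP-L. The ranges did not overlap, but the difference was modest. The means of 1090 ± 93.5 and 763 ± 32.1 CPM (SD, n = 3 each) gave a log2 fold change of -0.51 (SE 0.08, adjusted p = 0.00017).

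TDGF1P3, the near-identical copy described above, had 81.9 ± 1.17 CPM in hESCs, against 57.4 ± 6.96 CPM for NMP-L (SD, n = 3 each; log2 fold change -0.51, SE 0.10, adjusted p = 0.00087). It received 7.02 ± 0.562% of the counts of both genes in hESCs (SD, n = 3) and 7.39, 7.60 and 6.01% in the NMP-L libraries, and these shares overlapped (exact two-sided permutation p = 1). Summing both rows left the log2 fold change of TDGF1 at -0.51 (SE 0.08, adjusted p = 0.00014). Scaled to GAPDH, which fell by about as much, TDGF1 had a log2 fold change of 0.045 (adjusted p = 0.76), and its fall therefore rests on the scaling. Per NODAL TPM there were 474 ± 113 TPM of TDGF1 in hESCs and 68.4 ± 3.49 TPM in NMP-L cells (SD, n = 3 each). TDGF1 remained in large excess over NODAL transcript in both.

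Among the receptors, ACVR1B rose while the type II receptors moved little. ACVR1B, which encodes the type I receptor ALK4, had 730, 641 and 779 counts in hESCs, against 3012, 2822 and 2957 counts for NMP-L. In CPM these were 39.0, 33.0 and 40.7 against 135, 134 and 124. The groups were far apart, and the means of 37.5 ± 4.04 and 131 ± 6.53 CPM (SD, n = 3 each) gave a log2 fold change of 1.80 (SE 0.10, adjusted p = 5.1e-08).

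The related type I receptors ACVR1C (ALK7) and TGFBR1 (ALK5), which also act through SMAD2 and SMAD3, did not pass the test. ACVR1C had a log2 fold change of 0.01 (SE 0.19, adjusted p = 0.96) and TGFBR1 of 0.17 (SE 0.14, adjusted p = 0.30). ACVR1B thus made up 39.5, 45.1 and 45.0% of the TPM of these 3 receptors in hESCs and 72.7, 71.7 and 66.0% in NMP-L cells. Their sum was 39.2 ± 6.52 TPM in hESCs and 89.5 ± 3.23 TPM in NMP-L cells (SD, n = 3 each).

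ACVR2A, a type II receptor, had 18.6, 14.7 and 16.1 CPM in hESCs, against 20.2, 22.5 and 23.3 CPM for NMP-L. The highest hESC library lay just under the lowest NMP-L library. The means were 16.5 ± 1.99 and 22.0 ± 1.57 CPM (SD, n = 3 each; log2 fold change 0.42, SE 0.12, adjusted p = 0.011), and the call was lost when scaled to HPRT1 (0.12, adjusted p = 0.66). The share of its transcript's windows that also occur in the opposite-strand gene ORC4 was 6.85%.

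ACVR2B, the other type II receptor of the pathway, had 263, 192 and 233 CPM in hESCs, against 207, 236 and 240 CPM for NMP-L. These ranges overlapped, with the highest and the lowest library both from hESCs. The means were 229 ± 35.4 and 228 ± 18.3 CPM (SD, n = 3 each; log2 fold change -0.01, SE 0.11, adjusted p = 0.94), and only scaling to GAPDH gave a call (0.55, adjusted p = 0.013). ACVR2B made up 86.5 ± 0.504% of the TPM of both type II receptors in hESCs and 82.7 ± 0.261% in NMP-L cells (SD, n = 3 each). Their sum was 46.8 ± 7.89 and 52.0 ± 5.36 TPM (SD, n = 3 each), with overlapping libraries (exact two-sided permutation p = 0.5).

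Set against each other, ACVR1B TPM per TPM of both type II receptors was 0.326, 0.374 and 0.385 in hESCs and 1.37, 1.20 and 1.08 in NMP-L cells. Transcripts of ACVR1B were thus fewer than those of the type II receptors in every hESC library and more numerous in every NMP-L library. NODAL TPM came to 14.7 ± 2.52% of ACVR1B TPM in hESCs and 20.0 ± 2.02% in NMP-L cells (SD, n = 3 each), as both transcripts rose.

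The secreted inhibitors LEFTY1 and LEFTY2 were scarce throughout and lower in NMP-L cells. LEFTY2, which binds NODAL and its coreceptor and blocks signalling, had 20.95, 17.54 and 14.00 deposited counts in hESCs, against 3, 3 and 0 in NMP-L cells. LEFTY1, its neighbour with the same role, had 16.05, 11.46 and 9 counts in hESCs, against 0, 0 and 1 in NMP-L cells. For scale, 3 counts correspond to 0.125 to 0.160 CPM in these libraries, so the NMP-L libraries stood at or under that level for both genes, and the hESC libraries stood above it.

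From rounded counts summed over the libraries, LEFTY2 had 53 counts in hESCs and 6 in NMP-L cells, and was 10.4-fold higher in hESCs (95% counting interval 4.45 to 29.5). LEFTY1 had 36 and 1, a ratio of 42.2 (7.10 to 1712). The intervals are wide, and they cover counting error only. The fitted log2 fold change of LEFTY2 was -3.28 (SE 0.56, adjusted p = 0.00041), which depends on the constant that the fit adds to such low counts. LEFTY1 was not tested, and when the filter on low counts was dropped its log2 fold change was -4.92 (SE 0.83, adjusted p = 0.00014).

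Because reads from the identical coding windows fit both genes, their counts were also summed before the fit. The sums were 37, 29 and 23 in hESCs and 3, 3 and 1 in NMP-L cells. The log2 fold change of the sum was -3.82 (SE 0.44, adjusted p = 2e-05). Like LEFTY2, the sum passed the filter on low counts only through hESC libraries, so that it could hardly have passed without differing. As a description, the sum was lower in every NMP-L library than in every hESC library, however reads were divided between LEFTY1 and LEFTY2. In hESCs LEFTY1 received 43.4, 39.5 and 39.1% of the summed counts, and in NMP-L cells there were too few counts to give a share. Relative to NODAL, TPM of LEFTY1 and LEFTY2 together per 100 TPM of NODAL was 102, 64.9 and 45.8 in hESCs and 1.07, 1.19 and 0.437 in NMP-L cells. Transcripts of LEFTY1 and LEFTY2 together were of similar order to NODAL in hESCs and rare beside NODAL in NMP-L cells. This ratio leaves out GDF3, the main ligand transcript in hESCs (29.0 TPM), beside which LEFTY1 and LEFTY2 (0.830 and 0.843 TPM) were scarce there too.

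SMAD7, an inhibitory SMAD that blocks type I receptors from within and is itself induced by TGFβ family signals, had 31, 38 and 31 counts in hESCs and 28, 23 and 25 in NMP-L cells. In CPM these were 1.65, 1.95 and 1.62 against 1.26, 1.10 and 1.04. The groups did not overlap but were close. The means were 1.74 ± 0.184 and 1.13 ± 0.111 CPM (SD, n = 3 each; log2 fold change -0.62, SE 0.24, adjusted p = 0.043). This call was lost when any of the 6 libraries was left out (adjusted p = 0.058 to 0.13) and with DESeq2 (adjusted p = 0.13). It also rests on the scaling. It was lost when scaled to GAPDH (-0.07, adjusted p = 0.79) and with library size only (-0.55, adjusted p = 0.067), and kept when scaled to HPRT1 (-0.91, adjusted p = 0.024).

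Per transcript length, the order of the members in hESCs was TDGF1 (1137 ± 120 TPM), ACVR2B (40.5 ± 7.003), GDF3 (29.0 ± 3.41), ACVR1B (16.8 ± 2.06), ACVR2A (6.30 ± 0.892), NODAL (2.45 ± 0.325), SMAD7 (1.37 ± 0.152), LEFTY2 (0.843 ± 0.185) and LEFTY1 (0.830 ± 0.269), all as mean and SD of 3 libraries. In NMP-L cells it was TDGF1 (855 ± 64.6 TPM), ACVR1B (62.7 ± 1.06), ACVR2B (43.0 ± 4.48), NODAL (12.5 ± 1.06), ACVR2A (8.98 ± 0.891), GDF3 (2.35 ± 0.457), SMAD7 (0.963 ± 0.127), LEFTY2 (0.0900 ± 0.0781) and LEFTY1 (0.0200 ± 0.0346). Neighbours in each order had non-overlapping libraries, with the exception of LEFTY1 and LEFTY2 in both cell states. NODAL and ACVR1B each moved up the order by 2 places, and GDF3 moved down by 3.

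The rest of the pathway was described from a list of 46 further genes, of which 38 could be tested. Of these, 15 rose, beside 29.1% of all genes tested, 12 fell, beside 26.7%, and 11 did not pass the test, with a median log2 fold change of 0.11 beside 0.03 for all genes tested. These counts include INHBA, EOMES and FOXA2, which passed the filter on low counts only through the condition where each was higher. Their calls could hardly have been otherwise. Scaled to GAPDH the split was 21 higher and 6 lower, and scaled to HPRT1 it was 9 and 14. Of all 15517 genes tested, 10027 were higher and 1428 lower under GAPDH scaling, and 1793 higher and 5294 lower under HPRT1 scaling. The direction of most small changes therefore rests on the scaling, and genes for which a reference changed the call or direction are named as such.

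**Figure D3:**
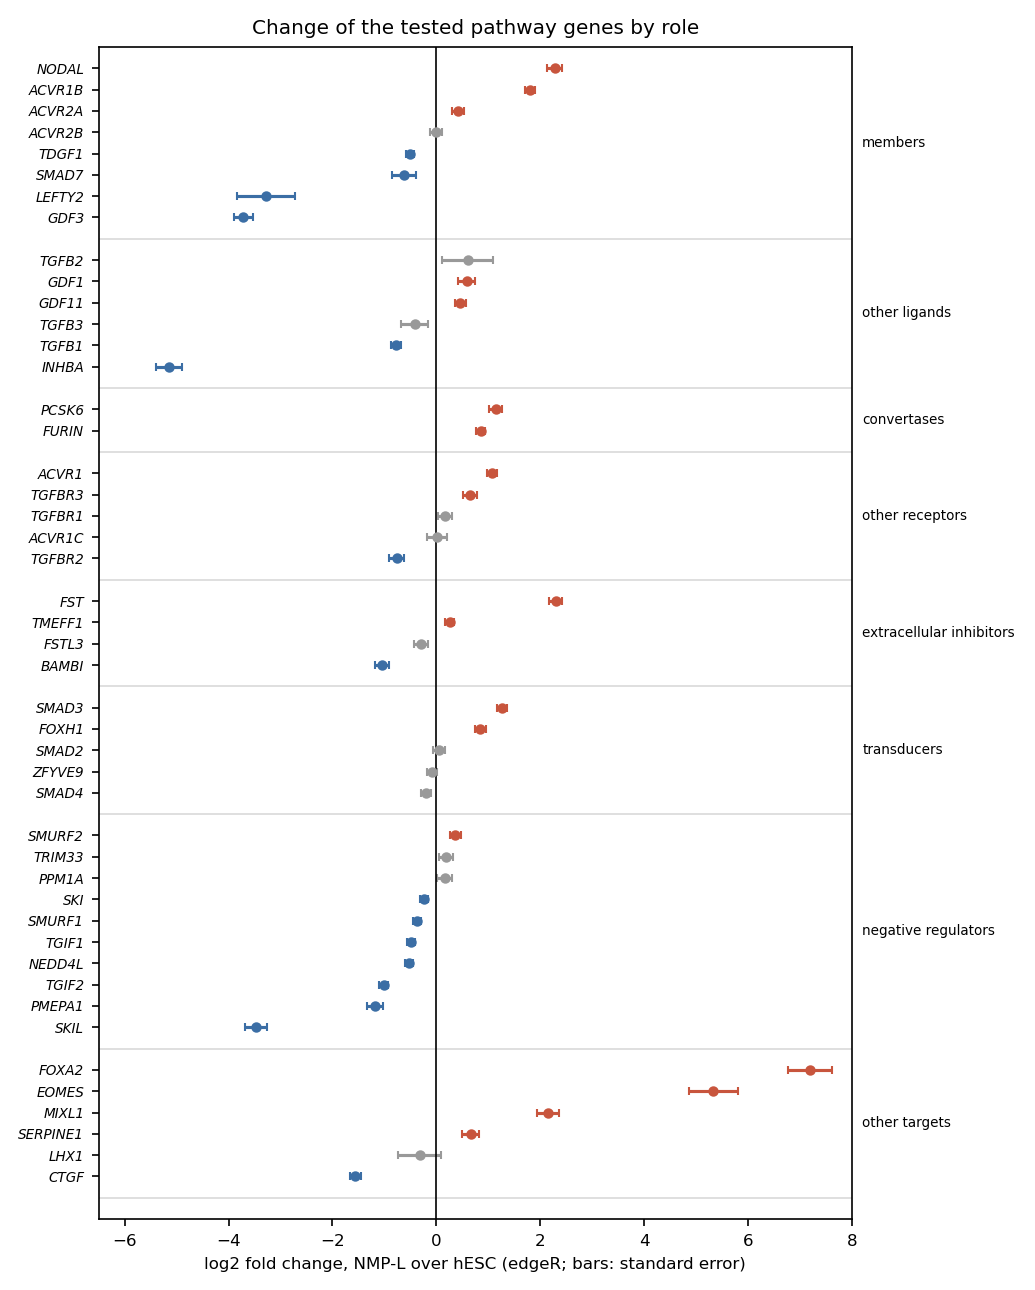
Log2 fold change, NMP-L over hESC, of the pathway genes tested, grouped by role, with bars of 1 standard error; the vertical line marks no difference, and red, blue and grey mark genes called higher, called lower and not called at an adjusted p under 0.05. Among the intracellular negative regulators 7 of 10 genes lie on the lower side as called, beside 26.7% of all genes tested. Scaled to GAPDH it was 3 of 10, beside 1428 of 15517 genes tested. SKIL lies farthest of these at -3.47, while FOXA2, EOMES, FST and NODAL lie far on the higher side.

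Among other ligands, 2 of 6 tested genes rose and 2 fell, beside 29.1% and 26.7% of all genes tested. Scaled to GAPDH these counts were 2 and 1, and scaled to HPRT1 they were 0 and 2. INHBA, the βA subunit that forms Activin A, had 9.34, 8.79 and 7.78 CPM in hESCs, against 0.359, 0.143 and 0.209 CPM for NMP-L. The NMP-L libraries held 8, 3 and 5 counts, and the fitted log2 fold change was -5.15 (SE 0.25, adjusted p = 2.4e-08). INHBA passed the filter on low counts only through its hESC libraries, so that it too could hardly have passed without differing. TGFB1, a ligand of the TGFβ branch, fell (-0.77, adjusted p = 5.4e-05), and GDF1 (0.58, adjusted p = 0.010) and GDF11 (0.46, adjusted p = 0.0033) rose. The call for TGFB1 was lost under GAPDH scaling (-0.21, adjusted p = 0.12), and those for GDF1 (0.28, adjusted p = 0.39) and GDF11 (0.16, adjusted p = 0.53) were lost under HPRT1 scaling. Both convertases that cleave ligand precursors rose, PCSK6 by 1.14 (SE 0.13, adjusted p = 1.8e-05) and FURIN by 0.85 (SE 0.08, adjusted p = 5e-06) on the log2 scale, and kept their calls under both references.

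Of 5 other receptors and coreceptors tested, 2 rose and 1 fell, beside 29.1% and 26.7% of all genes tested. Scaled to GAPDH these counts were 3 and 0, and scaled to HPRT1 they were 1 and 1. ACVR1 (ALK2), a type I receptor mainly of the BMP branch, rose by 1.08 on the log2 scale (SE 0.10, adjusted p = 2.9e-06). TGFBR3, betaglycan, rose (0.64, adjusted p = 0.0018) and TGFBR2, the type II receptor for TGFβ, fell (-0.77, adjusted p = 0.00086). TGFBR3 lost its call under HPRT1 scaling (0.35, adjusted p = 0.19), TGFBR2 lost its call under GAPDH scaling (-0.20, adjusted p = 0.30), and TGFBR1 was called higher under GAPDH scaling (0.74, adjusted p = 0.0088). CFC1, the other EGF-CFC coreceptor, had 0, 3.23 and 0 deposited counts in hESCs and 7.19, 1.21 and 11.77 in NMP-L cells, too few to test.

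Among other extracellular inhibitors and the decoy receptor, 2 of 4 tested genes rose and 1 fell, beside 29.1% and 26.7% of all genes tested. Scaled to HPRT1 these counts were 1 and 2. FST, follistatin, which sequesters Activins, had 8.54, 9.77 and 8.77 CPM in hESCs, against 48.5, 37.3 and 47.6 CPM for NMP-L. It rose 4.92-fold (log2 fold change 2.30, SE 0.13, adjusted p = 6.5e-08). BAMBI, a receptor-like protein that lacks the kinase, fell by 1.05 on the log2 scale (SE 0.13, adjusted p = 3.2e-05). TMEFF1, a membrane protein that can bind TDGF1, had 0.25 (SE 0.09, adjusted p = 0.030), a call lost in 9 of 18 alternative settings, with -0.06 under HPRT1 scaling. CER1, a secreted NODAL antagonist, had 0, 0 and 0 counts in hESCs and 1, 1 and 2 in NMP-L cells and was not tested. The secreted inhibitors thus did not move as 1 group.

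In the nucleus-bound part of the pathway, SMAD3 and FOXH1 rose, and none of the 5 transducers was called lower unless scaled to HPRT1, which called SMAD4 lower. For comparison, 29.1% of all genes tested rose and 26.7% fell. SMAD3 had 18.9, 18.4 and 18.0 CPM in hESCs, against 46.9, 43.4 and 42.1 CPM for NMP-L (log2 fold change 1.26, SE 0.09, adjusted p = 6.6e-07). FOXH1, a DNA-binding partner of SMAD2 and SMAD3, rose by 0.84 (SE 0.11, adjusted p = 4e-05). SMAD2 (0.05, SE 0.11, adjusted p = 0.73) and SMAD4 (-0.19, SE 0.10, adjusted p = 0.11) did not pass the test, although SMAD2 was higher under GAPDH scaling (0.62, adjusted p = 0.012) and SMAD4 lower under HPRT1 scaling (-0.49, adjusted p = 0.020).

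Of 10 intracellular negative regulators, 7 fell, 1 rose and 2 did not pass the test, whereas 3 were lower and 4 higher under GAPDH scaling and 7 were lower and 0 higher under HPRT1 scaling. Of all genes tested, 26.7% were lower and 29.1% higher in the TMM-scaled data. Of the same 15517 genes, 1428 were lower and 10027 higher under GAPDH scaling, and 5294 lower and 1793 higher under HPRT1 scaling. SKIL (SnoN), a repressor of SMAD complexes whose gene is induced by them, had 248, 143 and 177 CPM in hESCs, against 13.8, 15.9 and 21.5 CPM for NMP-L. It fell 11.1-fold (log2 fold change -3.47, SE 0.21, adjusted p = 1.2e-07). PMEPA1, which keeps SMAD2 and SMAD3 from the receptor, fell by 1.18 on the log2 scale (SE 0.16, adjusted p = 6.1e-05), and TGIF2, a corepressor, fell by 1.01 (SE 0.09, adjusted p = 3.4e-06). SKIL, PMEPA1 and TGIF2 kept their calls under both references. NEDD4L, a ubiquitin ligase, fell by 0.53 (SE 0.08, adjusted p = 0.00013), but its direction changed under GAPDH scaling (0.03, adjusted p = 0.81).

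Genes known as targets of the pathway in other settings did not move together. Of 6 tested, 4 rose and 1 fell, beside 29.1% and 26.7% of all genes tested. Scaled to HPRT1 these counts were 3 and 1. EOMES, a T-box factor of the primitive streak, had 2, 1 and 0 counts in hESCs and 46, 48 and 64 in NMP-L cells, a 44.9-fold difference of summed counts (95% counting interval 15.1 to 220). FOXA2, a forkhead factor of endoderm, notochord and floor plate, had 7 summed counts in hESCs and 1272 in NMP-L cells (155-fold, 75.04 to 386). MIXL1, a homeobox factor of the streak, rose by 2.15 on the log2 scale (SE 0.21, adjusted p = 6.2e-06), and CTGF, a matricellular protein, fell by 1.56 (SE 0.11, adjusted p = 3.7e-07). EOMES and FOXA2 passed the filter on low counts only through their NMP-L libraries, so that, as with LEFTY2, their place among the genes called could hardly have been otherwise, and their summed counts are given as a description.

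Marker genes of other cell types also differed between the conditions, and not all in the direction of NODAL, EOMES and FOXA2. The 4 notochord and floor plate genes NOTO, SHH, CHRD and FOXJ1 summed to 24.8 to 27.3 CPM in hESCs and 34.8 to 60.4 CPM in NMP-L cells, and both of the 2 that could be tested rose. The 6 endoderm genes summed to 5.60 to 6.84 and 20.7 to 32.2 CPM, but FOXA2 is 1 of them, and the other 5 summed to 5.35 to 6.73 and 8.10 to 10.2 CPM. Of 3 tested endoderm genes 2 were higher, FOXA2 among them, and SOX17, a defining endoderm gene, was at or under 3 counts in every library. The 5 mesoderm genes summed to 5.18 to 7.10 and 3.01 to 3.86 CPM through TBX6, 1 of 2 tested genes, which was lower. MSGN1 (0, 0 and 0 counts in hESCs, against 7, 4 and 2 in NMP-L cells) and MESP1 (1, 0 and 4 against 6, 8 and 5) went the other way, with too few counts to test. MESP2 did not pass the test, and HAND1 was at or under 3 counts throughout. The 4 neural progenitor genes summed to 0.907 to 1.49 and 9.91 to 13.1 CPM through SOX1, the 1 gene of the list that could be tested, while PAX6 had 3, 8 and 7 counts in hESCs, against 1, 0 and 0 in NMP-L cells, and NEUROG2 was at or under 3 counts. The 4 extraembryonic genes summed to 5.18 to 5.74 and 11.2 to 14.5 CPM through KRT7, likewise the 1 gene tested, with CGA at or under 3 counts. The part of such cells in the pathway genes' values was not tested.

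The promoters of 7 of the 9 members were searched for short sequences that SMAD complexes and FOXH1 are known to bind. For LEFTY1 and LEFTY2 no window was at hand, so their promoters were not searched. The RefSeq windows used ran from 250 bases before to 50 bases after a start site (GRCh38.p14), 11 windows in all. The SMAD sequence CAGACA, searched on both strands, occurred in 1 of these windows and in 16.9% of 35116 promoter windows. That window was 1 of the 2 windows of ACVR1B, and the other held no match. The palindromic GTCTAGAC (0.202% of all windows) and the FOXH1 sequences AATCCACA (0.817%) and AATACACA (0.766%) occurred in no member's window. The stretch of the ACVR1B window that holds the match, at chr12:51953220-51953305 on the plus strand in GRCh38.p14, is shown because ACVR1B was the receptor that rose most, with the match in capitals:
ACVR1B: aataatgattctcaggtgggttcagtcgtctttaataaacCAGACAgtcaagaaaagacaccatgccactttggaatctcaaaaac
A match of 6 letters is a description of the window and not a binding site.

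**Figure D4:**
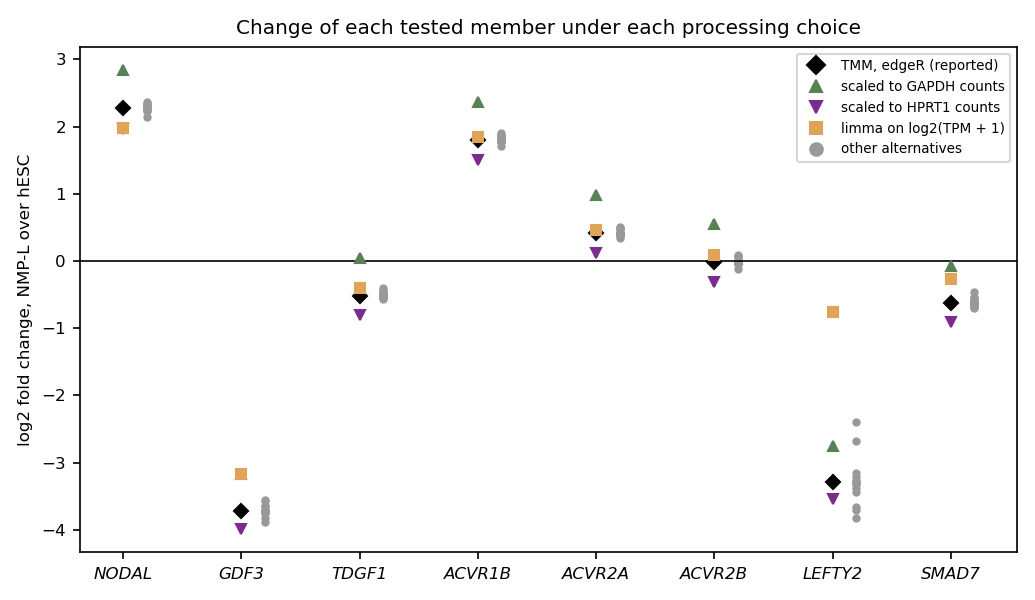
Log2 fold change, NMP-L over hESC, of the 8 tested members under each processing setting; black diamonds are the values reported, green and purple triangles are scaling to GAPDH and to HPRT1, orange squares are limma on log2(TPM + 1), and grey points are the other alternatives. NODAL stays between 1.97 and 2.84 and ACVR1B between 1.51 and 2.36, while ACVR2B runs from -0.31 to 0.55 across the line of no difference.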

How the data were processed

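RNA-seq libraries of H9 hESCs and NMP-L cells (3 each, single-end reads of 76 bp) were analysed from the deposited table of RSEM values. Per the labels, the authors' processing notes name cutadapt 1.9.1, STAR 2.5.2a, RSEM 1.3.0, DESeq2 1.12.3 and hg19, and the annotation is not given in the sources used here. The deposited expected counts are the authors' RSEM estimates per gene, which share out reads that fit several genes, and the deposited TPM values are scaled for length and total within each library. Samples were assigned to groups by their titles, and no column of per-sample values was left unused.

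Expected counts were rounded, filtered with filterByExpr (minimum count 10), scaled by TMM and tested with edgeR 4.0.16 (quasi-likelihood, R 4.3.3) over all 15517 genes kept, with Benjamini-Hochberg adjustment and a threshold of 0.05. CPM are TMM-scaled. A pseudocount of 0.1 was used for the exact permutation tests on log2(CPM). Totals of 19454543 to 23036426 counts put 3 counts at 0.125 to 0.160 CPM, and genes near that level have wide intervals. The fits were tested on simulated data. Alternatives were DESeq2 1.42.0, limma 3.58.1 on log2(TPM + 1) and log2(TPM + 0.1), other scalings and filters, a replicate block, near-identical copies summed, and leaving out each library.

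The members and gene lists were chosen with earlier results of these data known. Named were all members and, of each further list, up to 4 called genes with the largest change, plus ACVR1C, TGFBR1, CFC1, SMAD2, SMAD3, SMAD4, FOXH1, CER1, FST and GDF1. Gene positions and transcripts came from GENCODE on GRCh37, and shared windows were counted over the longest coding transcript of each gene. Promoters came from RefSeq (GRCh38.p14). The coding sequences of LEFTY1 and LEFTY2 are not reported here.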

Additional observations from a re-analysis of the deposited data

How the results depend on the processing

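NODAL, GDF3 and ACVR1B kept their direction and call in all 18 alternative settings. LEFTY2 kept its own in all 17 that could be run, from -3.82 to -0.76 on the log2 scale. Because LEFTY2 passed the filter on low counts only through hESC libraries, its kept call says less than those of the other genes. LEFTY2 could not be tested with at least 10 counts required in every library, and the LEFTY1 ratio had no value without NMP-L replicate 3, the 1 NMP-L library with a count. Scaled to GAPDH, 2 members and 6 further pathway genes were lower, against 4 and 12 as reported, and TDGF1 turned to 0.045 and ACVR2B to 0.55. Scaled to HPRT1, 9 further pathway genes were higher, against 15. These shifts follow from dividing by genes that themselves differed from the TMM-scaled median. The sign of ACVR2B, which was not called, also changed with library size only (0.066) and with limma on log2(TPM + 1) and log2(TPM + 0.1) (0.093 and 0.095), and ran from -0.12 to 0.075 when 1 library was left out. SMAD7 kept its call in 6 of 18 settings. With 1 library left out, members called higher stayed at 3, members called lower were 3 or 4, further pathway genes were 14 or 15 higher and 11 or 12 lower, and genes called overall ran from 7255 to 8891, against 8653.

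The labels number the replicates in both groups, but deviations from the group means of same-numbered libraries correlated at -0.37, -0.06 and -0.13, so the numbers were not taken to pair the libraries. With a replicate block 3 members were higher and 3 lower, SMAD7 losing its call (adjusted p = 0.089 by edgeR), and 7560 genes were called overall. Depth limits LEFTY1, LEFTY2, CFC1, CER1 and SMAD7, which had the fewest counts per library.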

Other observations

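The genes whose levels followed those of NODAL most closely over the 6 libraries were SYT10, NPAS2, VAMP2, NKX1-2 and TCHP, by the root mean square difference of log2(CPM + 0.1) after centring each gene. That difference was 0.0761 for SYT10, a synaptotagmin, 0.0909 for NPAS2, a circadian transcription factor, 0.0964 for VAMP2, a vesicle SNARE protein, 0.112 for NKX1-2, a homeobox gene of the caudal epiblast, and 0.122 for TCHP. NKX1-2 is also 1 of the 5 NMP marker genes used here, and its log2 fold change of 2.06 (SE 0.15) lies close to the 2.28 of NODAL. With 2 conditions, the measure mostly ranks genes by how similar the size of their difference is.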
